A study of Mus musculus with 27 samples.

Results

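The optic stalk (OS) of Smarcc1-DCT-cKO mouse embryos was compared between its dorsal and its ventral wall at embryonic day (E) 14, using the 5 dorsal and the 5 ventral RNA libraries of mutants among the 27 libraries of that stage. The libraries were chosen by their labels alone: mutant, dorsal or ventral, numbers 1 to 5. Libraries with the same number were taken as pieces of 1 embryo, which the labels do not state, and the comparison was therefore made both without and with the number as a term. The pieces were cut by laser from transverse cryosections of the OS. In the mutants both alleles of Smarcc1 (also called Baf155) carry loxP sites, Cre is driven by the promoter of the pigment gene Dct, and a Z/EG reporter is present. Controls are littermates of the same C57Bl6/J stock with no Dct-Cre, and 4 dorsal and 4 ventral control libraries served for reference. Dct-Cre reaches the dorsal OS before the ventral OS. By antibody labelling, the paper reports Smarcc1 protein as lost from the whole OS of mutants by E14. It also reports cells of the optic disc without Cre activity. Whether a mutant library here holds cells that kept Smarcc1 was not tested. Mutants 1 to 3 and control 1 belong to batch A of the labels, and mutants 4 and 5 and controls 2 to 4 to batch B.

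The OS is the tube of neuroepithelium that joins the eye cup to the brain and through which the axons of retinal ganglion cells grow. Its cells give rise to the astrocytes of the optic nerve and are known for Pax2, Vax1 and Vax2, while the retinal pigment epithelium (RPE) is known for Mitf, Otx2 and the enzymes of melanin synthesis, and the neural retina for Pax6. Smarcc1 is a scaffold subunit of SWI/SNF (BAF), a complex that moves nucleosomes and opens chromatin at promoters and enhancers.

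The 10 libraries held 10899418 to 33980417 counts, so that 1 read equals 0.0294 to 0.0917 CPM (counts per 1000000 counts of the library), and 12396 to 15177 genes had at least 1 count. No difference between dorsal and ventral libraries was detected in the total count, the number of genes, the mitochondrial share or the ribosomal protein share (two-sided exact permutation p over all assignments of the 10 libraries, 0.0952, 0.46, 0.294 and 0.706). Smarcc1 itself was at 94.9, 107, 2.26, 44.3 and 24.5 CPM in dorsal mutants 1 to 5 and at 40.2, 64.4, 23.3, 24.7 and 14.7 CPM in the ventral pieces, so the groups overlapped (log2 fold change 0.72 ± 0.85 SE, edgeR adjusted p = 1). The 8 control libraries held 75.7 to 289 CPM of it. Mutant 2 stood apart in both pieces. Fgf15, a growth factor made by retinal progenitors, was at 1046 CPM in its dorsal and 846 CPM in its ventral library, against 0 to 48.7 CPM in the other 8. Atoh7, which starts the ganglion cell programme, was at 405 and 212 CPM there against 0 to 43.0 CPM. Both genes were picked after their values were seen.

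The dorsal and ventral libraries of the mutants formed separate groups. On the first 2 principal components of the 1000 most variable genes, which carried 19.3% and 14.6% of the variance, all 5 dorsal libraries had positive and all 5 ventral libraries negative values on component 1. The distance between the group centroids had a p of 0.00794 in an exact permutation test (one-sided, all assignments of 5 dorsal and 5 ventral labels), the smallest that test can give. With dorsal and ventral exchanged only within a number, the exact p was 0.0625, again the smallest possible.

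**Figure D1:**
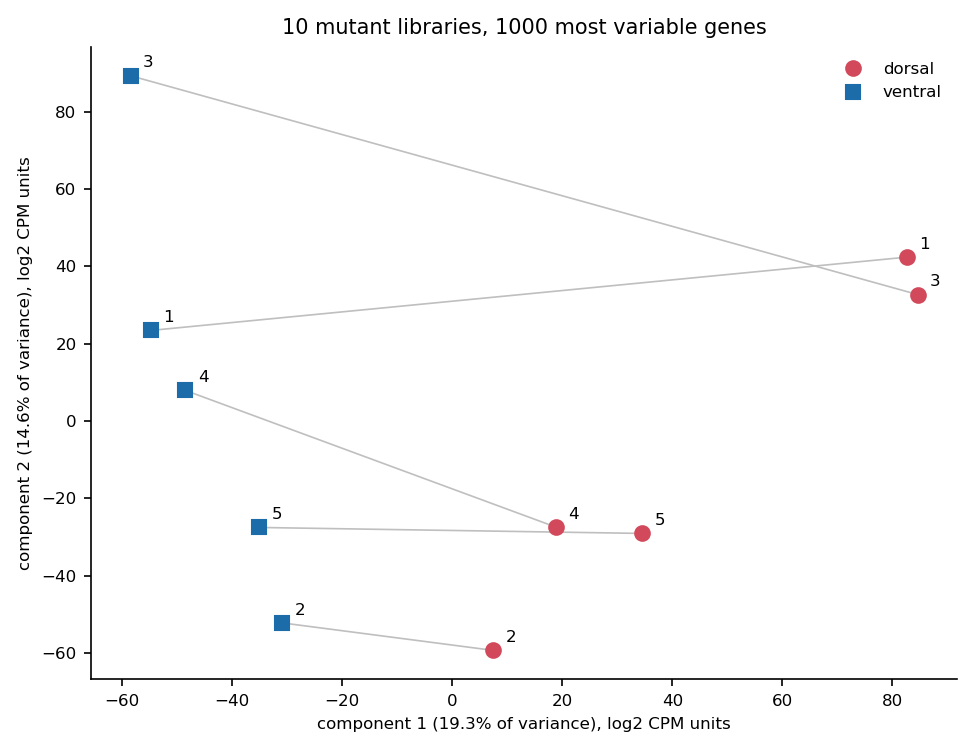
First 2 principal components (axes in log2 CPM units) of the 10 mutant libraries over the 1000 most variable genes; circles are dorsal and squares ventral libraries, digits give the mutant, and grey lines join equal numbers. Component 1 (19.3% of the variance) separates the regions, and on component 2 (14.6%) the libraries of mutant 2 are the lowest of each region.

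Gene by gene, few transcripts passed the test alone. The edgeR quasi-likelihood test without a term for the number called 0 of 16168 genes (0%) where a call asks for both a log2 fold change beyond 0.58 in size and a p below 0.05 after Benjamini-Hochberg correction. The lowest adjusted p was 0.0625, shared by 14 genes, 6 of them higher in dorsal and 8 in ventral pieces. At an unadjusted p under 0.05, 1055 genes (6.53%) were higher in dorsal and 952 (5.89%) in ventral libraries. In 98 genes (0.606%) every dorsal value lay above every ventral value, and in 150 (0.928%) every ventral value lay above every dorsal value. With the number as a term, 4 genes were called higher in dorsal (0.0247%) and 2 higher in ventral pieces (0.0124%). In that fit 653 of 16168 genes had an unadjusted p under 0.05, against 2007 (12.4%) without the number. Without the number but with only genes of over 10 counts in 5 of the 10 libraries, 490 of 10954 genes had one. Fold changes are dorsal minus ventral throughout, with their SE, and over all genes the log2 fold change had its median at 0.01. In a bulk sample, fewer cells of a type and less RNA per cell cannot be told apart. In the controls, edgeR called 0 of 16118 genes (0%) without or with the number as a term, with 1087 genes (6.74%) at an unadjusted p under 0.05 without it and 410 (2.54%) with it. Without the number, limma voom called 27 and DESeq2 460 genes in the mutants, and edgeR called from 0 to 8 with 1 library left out, the most without ventral mutant 1.

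**Figure D2:**
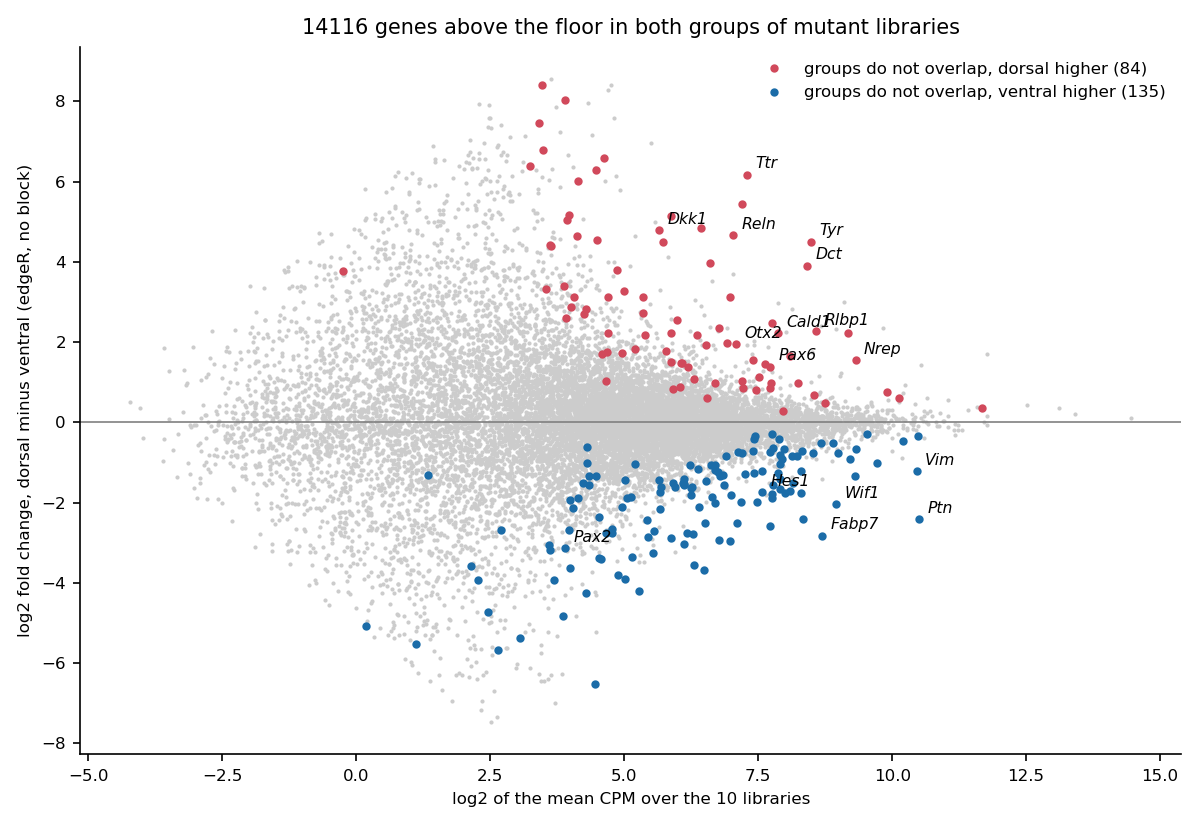
Log2 fold change (dorsal minus ventral, edgeR without the number as a term) against the log2 of the mean CPM for 14116 genes, those that exceed 3 counts in some dorsal and in some ventral library of mutants. Coloured points are genes whose dorsal and ventral values do not overlap (84 higher in dorsal, 135 higher in ventral among those drawn), and the widest folds lie at low levels.

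The 4 genes called higher in dorsal pieces were Dct, Rlbp1, Nrep and Cd34. Dct, the dopachrome tautomerase of melanin synthesis (chr14:118012790-118052244, mm10), was at 1175, 332, 924, 222 and 533 CPM in dorsal mutants 1 to 5 and at 69.1, 9.4, 80.8, 10.1 and 41.1 CPM in the ventral pieces. The lowest dorsal value was above the highest ventral value, and the log2 fold change was 3.90 ± 0.66 without the number (edgeR adjusted p = 0.0625) and 4.19 ± 0.30 with it (edgeR adjusted p = 0.014). Its promoter also drives Cre in these mice. Rlbp1, the retinaldehyde-binding protein of RPE and glia (chr7:79374870-79387048), was at 833, 486, 1039, 379 and 425 CPM in dorsal and at 264, 80.6, 133, 66.5 and 115 CPM in ventral libraries. These groups did not overlap either (log2 fold change 2.34 ± 0.23 with the number, edgeR adjusted p = 0.0351). Nrep, a neuronal regeneration-related protein, was at 1283, 741, 962, 1045 and 709 CPM in dorsal and at 339, 196, 415, 403 and 286 CPM in ventral libraries. All 5 dorsal values lay above the ventral ones (1.57 ± 0.16 on the log2 scale with the number, edgeR adjusted p = 0.0351). Cd34, a sialomucin of endothelial and some mesenchymal cells (chr1:194938819-194961279), was at 59, 0, 416, 30.5 and 49.1 CPM in dorsal libraries and at 0, 0, 0.0294, 0 and 0 CPM in ventral libraries. Both pieces of mutant 2 were at 0, so the groups overlapped there, and against a floor of 3 counts per library the dorsal mean was at least 686-fold higher (edgeR adjusted p = 0.0351 with the number). PCR copies without molecular identifiers are not independent molecules, so such floors cover counting error only. In controls the log2 fold changes of Dct, Rlbp1, Nrep and Cd34 were 2.33 ± 1.19, 0.73 ± 1.25, 0.89 ± 0.40 and 2.78 ± 1.69, none of them called. Cd34 was at 91.4 to 124 CPM in dorsal controls and at 0 to 32.1 CPM in ventral controls.

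Vim and Ptn were called higher in ventral pieces. Vim, the intermediate filament of neuroepithelial and glial progenitors (chr2:13573927-13582826), was at 749, 489, 1035, 900 and 1020 CPM in dorsal mutants 1 to 5 and at 1843, 1248, 2400, 2384 and 1999 CPM in ventral pieces. The lowest ventral value exceeded the highest dorsal one (log2 fold change -1.23 ± 0.10 with the number, edgeR adjusted p = 0.014). In controls the log2 fold change of Vim was -0.29 ± 0.31. Ptn encodes the secreted growth factor pleiotrophin (chr6:36714929-36810220), and its values ran from 157 to 921 CPM in dorsal and from 1380 to 3362 CPM in ventral pieces (-2.59 ± 0.26, edgeR adjusted p = 0.0351). These calls depended on every mutant: without both libraries of mutant 2 the fit with the number called 2 of the 4 dorsal genes and neither ventral gene, and without those of mutant 1, 3, 4 or 5 it called 0. Within batch A (3 mutants) and batch B (2 mutants) the log2 fold changes were 3.90 and 3.90 for Dct, 2.29 and 2.17 for Rlbp1, 1.64 and 1.39 for Nrep, -1.29 and -1.16 for Vim and -2.88 and -2.13 for Ptn.

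**Figure D3:**
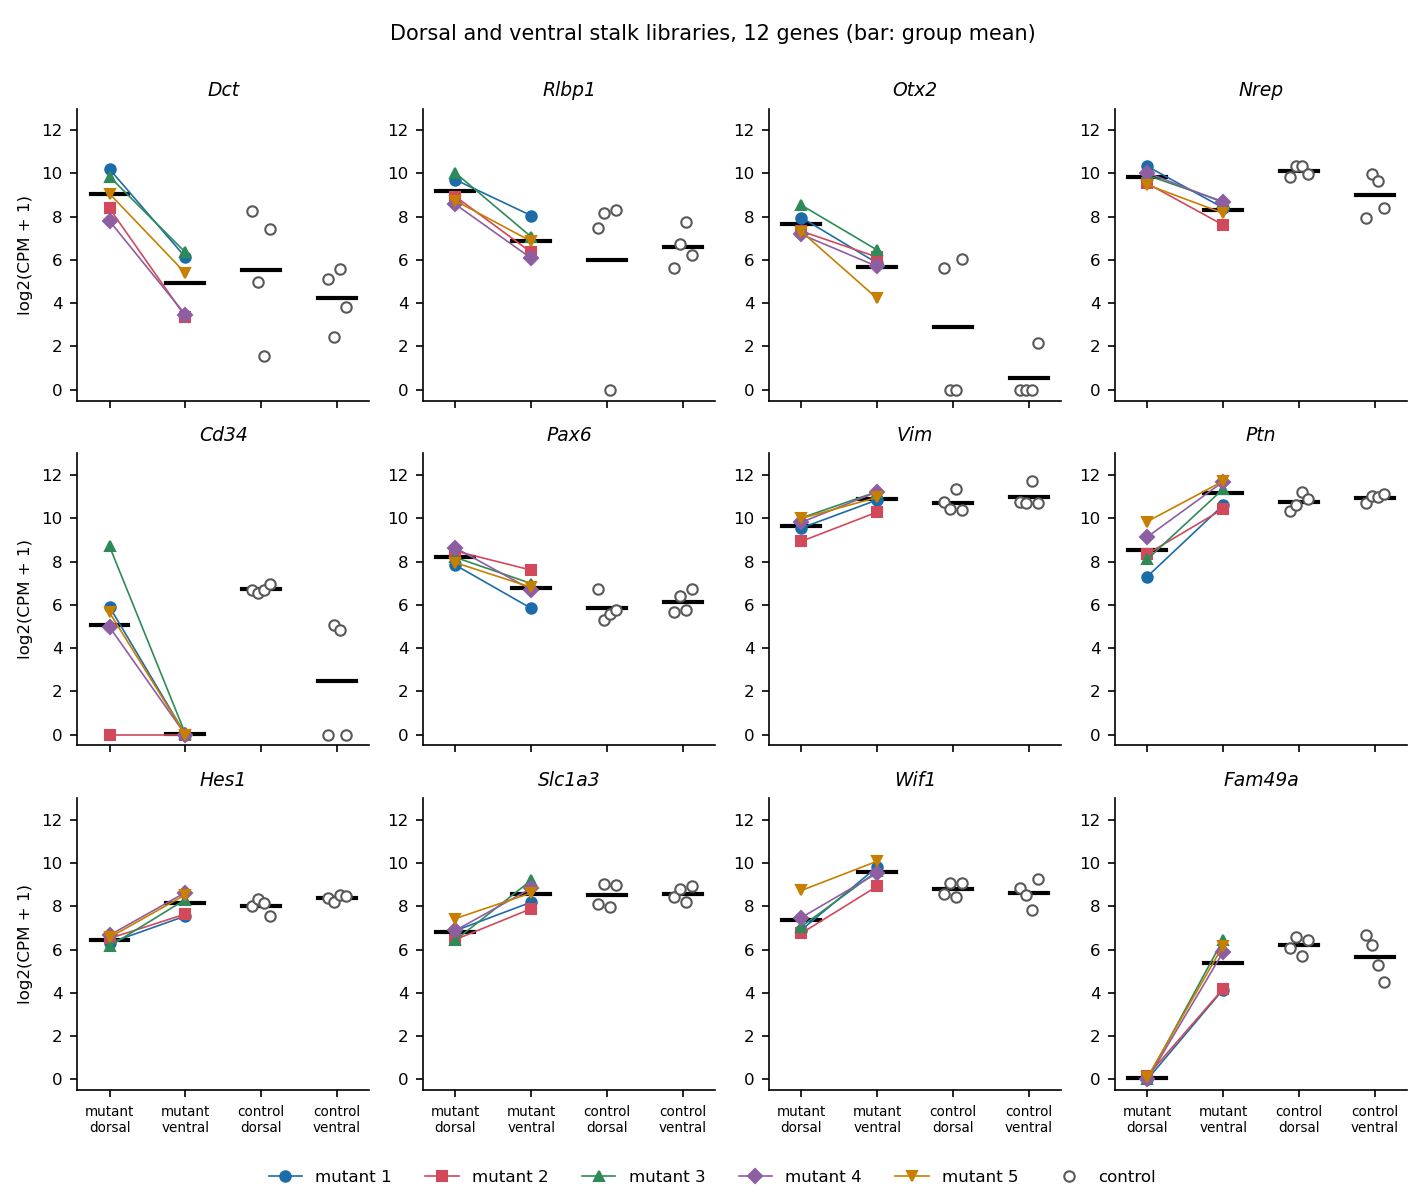
Log2(CPM + 1) of 12 genes in every dorsal and ventral library; coloured lines join equal numbers of mutants, open circles are controls and black bars are group means. In the mutants Dct, Rlbp1, Otx2, Nrep and Pax6 are higher in all 5 dorsal pieces, and Vim, Ptn, Hes1, Slc1a3, Wif1 and Fam49a in all 5 ventral pieces, while Cd34 is at 0 in both pieces of mutant 2.

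Genes of pigment cells were higher in the dorsal wall of all 5 mutants, by 3.07 ± 0.86 (SD, n = 5) in the mean log2(CPM + 1) over the list. Of 16 genes of melanin synthesis and of the melanosome, the organelle that stores melanin, 15 had a positive log2 fold change, 11 were higher in the dorsal piece of all 5 mutants and 4 (Tyr, Dct, Oca2 and Gpr143) did not overlap between the groups, against 3.21% and 0.606% of all genes for the last 2 counts. Their median log2 fold change was 3.32 (3.29 with genes at the floor set to their bound), an unadjusted p under 0.05 was reached by 10 in the dorsal and 0 in the ventral direction (6.53% and 5.89% of all genes), and of them only Dct was called with the number as a term. The summed level of the list ran from 5920 to 17689 CPM in dorsal and from 1220 to 6335 CPM in ventral libraries, so the sums overlapped. Gpr143, the melanosomal receptor of ocular albinism, was at 1.1, 25.4, 108, 48.8 and 61.4 CPM in dorsal pieces and at 0 in all 5 ventral pieces. Against the floor its dorsal mean was at least 304-fold higher (edgeR adjusted p = 0.0765 without and 0.76 with the number), and the 8 controls held at most 0.0621 CPM. Tyr, the tyrosinase that starts melanin synthesis, was named, like Oca2, after its values were seen: it was at 798, 668, 920, 612 and 427 CPM in dorsal and at 65.3, 8.3, 0, 42.7 and 38 CPM in ventral pieces. Its groups were far apart but varied in the ventral wall (log2 fold change 4.50 ± 1.12, edgeR adjusted p = 0.341). In the controls the same 16 genes had a median log2 fold change of 1.99, with 3 at an unadjusted p under 0.05 in the dorsal and 0 in the ventral direction (3.4% and 3.34% of all genes). No gene of the list had an adjusted p under 0.05 in the edgeR test of whether the difference between the walls differed between mutants and controls. Dorsal mutants were not tested directly against dorsal controls.

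Of 15 RPE genes outside melanin synthesis, 12 could be tested, 10 of these had a positive log2 fold change and 3 did not overlap (Otx2, Rlbp1 and Ttr, against 0.606% of all genes), with a median of 1.62 in mutants and 1.05 in controls. An unadjusted p under 0.05 was reached by 6 in the dorsal and 0 in the ventral direction, against 6.53% and 5.89% of all genes. Ttr, the thyroxine and retinol carrier transthyretin, was at 537, 209, 408, 113 and 269 CPM in dorsal mutants and at 2.56, 9.16, 0, 10.2 and 0 CPM in ventral mutants. Each dorsal value was above 100 CPM and each ventral value below 11 CPM (log2 fold change 6.17 ± 1.30, edgeR adjusted p = 0.173). Otx2, a homeobox gene of the RPE, was at 248, 160, 369, 144 and 158 CPM in dorsal and at 56.8, 69.2, 86.9, 51 and 17.6 CPM in ventral pieces (1.94 ± 0.43, edgeR adjusted p = 0.198). In controls 1 to 4 Otx2 was at 48.3, 0, 0 and 64.3 CPM in dorsal and at 0, 0, 0 and 3.54 CPM in ventral pieces (5.02 ± 3.22, edgeR adjusted p = 0.85). Mitf, the master regulator of pigment cells, overlapped, with 117 to 411 CPM in dorsal and 74.7 to 178 CPM in ventral pieces (0.72 ± 0.37, edgeR adjusted p = 0.487). The visual cycle genes Rpe65, Lrat and Rgr did not pass the filter on low counts. Of 10 markers of neural crest melanoblasts, the other source of pigment cells, 6 could be tested. By edgeR an unadjusted p under 0.05 was reached by 0 in the dorsal and 1 in the ventral direction, against 6.53% and 5.89% of all genes. A list of 6 genes is too short to set these counts apart from those shares, and the source of the pigment cells was not tested. The defining crest genes Sox10, Foxd3, Pax3 and Tfap2a did not pass the filter, and the summed level of the 6 was 26.1 to 65.7 CPM in dorsal and 110 to 504 CPM in ventral libraries. Of these, Ednrb, the endothelin B receptor, was at 0, 21.7, 25.2, 47.7 and 44.7 CPM in dorsal and ran from 109 to 399 CPM in ventral pieces, without overlap (-2.95 ± 0.91, edgeR adjusted p = 0.381), and made up most of the ventral sum. Of the 6, 3 had a positive and 3 a negative log2 fold change, with a median of -0.66, or 0.62 with the gene at the floor set to its bound.

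The promoters of 3 of these genes, picked after their values were seen, are shown because the genes were higher in all 5 dorsal pieces without overlap and each promoter holds a word that pigment cell factors are known to bind: CATGTG (reverse complement CACATG), an E-box of MITF, or TAATCC (reverse complement GGATTA), a word of OTX proteins. Each line gives the 250 bases before the annotated transcript start on the minus strand, 5′ to 3′, from RefSeq on GRCm38.p6, at chr14:118052247-118052496 for Dct, chr7:87493513-87493762 for Tyr and chr7:79387028-79387277 for Rlbp1. Capitals mark the words found. Oca2 and Otx2, which are not shown, also did not overlap and held CATGTG on either strand.
Dct: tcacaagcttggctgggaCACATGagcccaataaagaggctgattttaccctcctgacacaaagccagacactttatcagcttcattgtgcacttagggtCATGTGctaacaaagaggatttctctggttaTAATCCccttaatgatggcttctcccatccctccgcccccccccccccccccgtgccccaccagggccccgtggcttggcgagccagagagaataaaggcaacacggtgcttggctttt
Tyr: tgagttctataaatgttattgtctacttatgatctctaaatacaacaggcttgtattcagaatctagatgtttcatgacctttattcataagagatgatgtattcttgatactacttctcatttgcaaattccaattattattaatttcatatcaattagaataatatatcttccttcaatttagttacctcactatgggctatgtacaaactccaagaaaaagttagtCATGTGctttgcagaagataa
Rlbp1: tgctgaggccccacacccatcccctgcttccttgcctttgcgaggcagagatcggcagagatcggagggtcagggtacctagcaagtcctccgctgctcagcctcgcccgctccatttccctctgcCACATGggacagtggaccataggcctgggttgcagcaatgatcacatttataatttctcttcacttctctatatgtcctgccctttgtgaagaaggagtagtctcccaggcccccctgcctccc
In Dct the words begin 232, 150 and 119 bases before the start, in Tyr 21 and in Rlbp1 124 bases before it. Both strands were searched, and matches of the words may overlap. Of the melanin list, 11 genes matched the promoter table, of which 6 (54.5%) held CATGTG on either strand in at least 1 promoter and 3 (27.3%) held TAATCC. Of the RPE list, 12 genes matched, of which 3 (25%) held CATGTG and 5 (41.7%) held TAATCC. Among all 27025 genes of the table, 13.8% held CATGTG and 7.21% held TAATCC in windows of the same length. A gene can have several promoters, which raises its share. Counted by promoter, CATGTG was in 42.9% of 14 for the melanin list, 15% of 20 for the RPE list and 12.3% of all 32851. For TAATCC these shares were 21.4%, 25% and 6.25%. These are matches of letters, not measured binding.

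**Figure D4:**
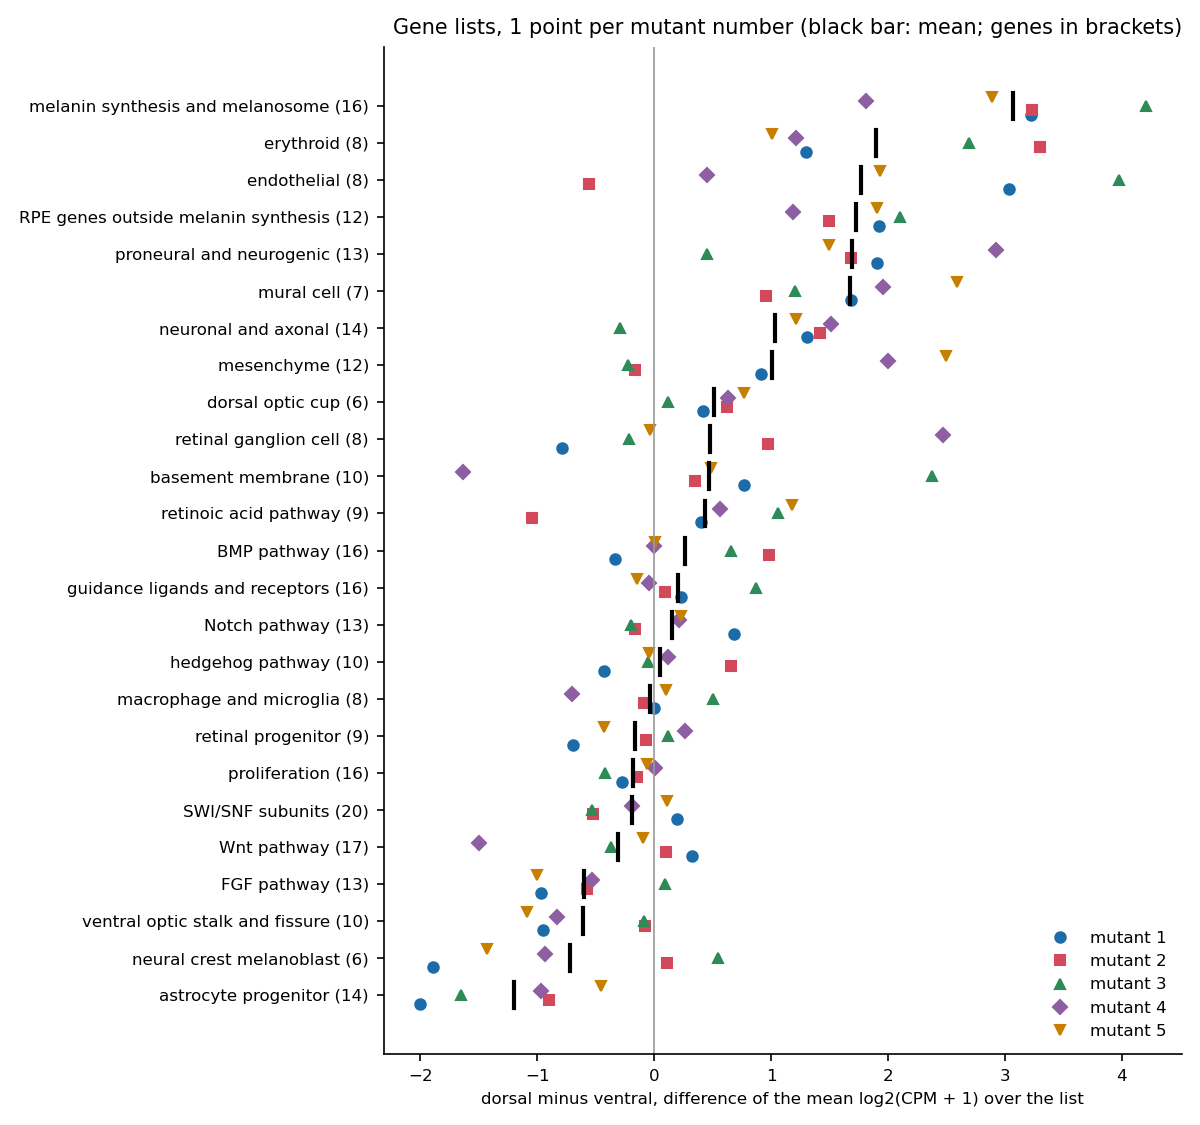
Difference between dorsal and ventral pieces in the mean log2(CPM + 1) over each gene list, 1 point per mutant, with a black bar for the mean of the 5 and the number of genes tested in brackets. Melanin and RPE genes lie right of 0 and astrocyte progenitor genes left of 0 in all 5 mutants, and endothelial, mesenchyme and basement membrane points scatter widely.

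Most genes of astrocyte progenitors had higher mean levels in the ventral wall. Among 14 tested genes of astrocyte progenitors, 13 had a negative log2 fold change, 9 were higher in the ventral piece of all 5 mutants and 6 (Pax2, Sox2, Slc1a3, Fabp7, Hes1 and Vim) did not overlap, against 3.78% and 0.928% of all genes for the last 2 counts. Their median was -1.30 in mutants and -0.47 in controls, an unadjusted p under 0.05 was reached by 8 in the ventral and 0 in the dorsal direction (5.89% and 6.53% of all genes), and of them only Vim was called with the number as a term. Gfap and Aldh1l1, marks of more mature astrocytes, did not pass the filter. Hes1, the Notch effector that keeps progenitors undifferentiated, was at 78.4, 90.7, 70.6, 101 and 93.7 CPM in dorsal and at 187, 199, 318, 398 and 370 CPM in ventral mutants. Its dorsal values were close to one another and every ventral value lay above them (log2 fold change -1.74 ± 0.27, edgeR adjusted p = 0.0625 without and 0.204 with the number). Slc1a3, the glutamate transporter of radial glia, ran from 85.8 to 173 CPM in dorsal and from 237 to 592 CPM in ventral pieces (-1.75 ± 0.29, edgeR adjusted p = 0.0625 without and 0.238 with the number). Fabp7, a fatty acid-binding protein of radial glia, was at 17.2, 86.7, 57.5, 140 and 204 CPM in dorsal and at 869, 560, 682, 542 and 962 CPM in ventral pieces. These groups did not overlap (-2.83 ± 0.49, edgeR adjusted p = 0.0625 without and 0.276 with the number), and the controls had a log2 fold change of -1.95.

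Pax2, the marker of the OS itself, was low in the dorsal wall of the mutants, at 0.0917, 1.79, 3.89, 3.17 and 5.78 CPM, and higher in every ventral piece, at 14.4, 8.85, 8.74, 59.6 and 41.9 CPM. In controls 1 to 4 it was at 38.8, 33.1, 0.826 and 39.2 CPM in dorsal and at 56.5, 27.8, 6.91 and 46.8 CPM in ventral pieces, so that dorsal control 3 lay within the range of the dorsal mutants. The difference was not called (log2 fold change -3.13 ± 1.42, edgeR adjusted p = 0.387). Vax1, a homeobox gene of the stalk also named after its values were seen, was between 0.207 and 8.06 CPM in dorsal and between 2.63 and 11.6 CPM in ventral mutants, with overlap (-1.65 ± 1.70, edgeR adjusted p = 0.984). The ventral stalk and optic fissure list, which holds Pax2, split by direction: of 10 tested genes 4 had a positive log2 fold change, an unadjusted p under 0.05 was reached by 3 in the dorsal (Aldh1a3, Ephb1 and Ephb2) and 2 in the ventral direction (Pax2 and Ntn1), and the median was -1.08. Over all genes, 6.53% reached that level in the dorsal and 5.89% in the ventral direction. Ntn1, the axon guidance cue netrin of the optic disc, was at 1.47, 93.7, 33.6, 68.1 and 97.8 CPM in dorsal and at 452, 184, 208, 383 and 589 CPM in ventral pieces, without overlap (-2.59 ± 0.71, edgeR adjusted p = 0.368). Aldh1a3, an enzyme of retinoic acid synthesis, ran from 51.2 to 411 CPM in dorsal and from 0.0589 to 71.7 CPM in ventral pieces (2.35 ± 0.97, edgeR adjusted p = 0.381). Of 8 genes of the dorsal optic cup, 6 could be tested and 3 of these had a positive log2 fold change. Their median was 0.69 in mutants and 3.51 in controls, and in mutants -2.19 without both libraries of mutant 2. Of the 6 genes, 2 were at the floor in at least 1 wall. The mean log2(CPM + 1) over the list was higher in the dorsal piece of all 5 mutants, by 0.51 ± 0.25 (SD, n = 5).

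Pax6 and Pax2, which oppose each other at the border of eye and stalk, differed in opposite directions. Pax6 was at 227, 357, 291, 396 and 246 CPM in dorsal and at 56.1, 193, 125, 103 and 111 CPM in ventral mutants, without overlap (log2 fold change 1.39 ± 0.31, edgeR adjusted p = 0.216). Sox2, a factor of neural progenitors, was at 1.65, 70.8, 3.11, 29.2 and 80.1 CPM in dorsal and at 106, 116, 87.9, 153 and 118 CPM in ventral pieces (-1.62 ± 0.82, edgeR adjusted p = 0.466). Dorsal mutants 1 and 3 were the lowest for Sox2. Sox9, which acts in glial fate, ran from 90.6 to 192 CPM in dorsal and from 178 to 491 CPM in ventral pieces and was higher in the ventral piece of all 5 mutants (-1.11 ± 0.29, edgeR adjusted p = 0.341). For 13 genes that the study discusses, an exact permutation test of log2(CPM + 1) over the same assignments gave its smallest possible p, 0.00794 (two-sided), for Pax6, Otx2, Pax2, Sox2 and Hes1. It gave an exact p of 0.0159 for Sox9, 0.0397 for Mmp14, 0.0635 for Nefm and 0.206 for Mitf, and exact p-values from 0.524 to 1 for Smarcc1, Smarcc2, Smarca4 and Adam15. These are uncorrected. After Benjamini-Hochberg correction over the 13 genes the smallest exact permutation p was 0.0206, with 0.0344 for Sox9 and 0.0737 for Mmp14. With sign changes of the 5 differences the exact p cannot fall below 0.0625, and that value was reached for Pax6, Otx2, Pax2, Sox2, Sox9, Hes1 and Mmp14. Corrected in the same way, the exact p of these sign changes was 0.116. These genes were listed with results of these data known, so the p-values are not independent evidence of their direction. Mmp14, a membrane-bound metalloproteinase, ran from 14.6 to 27.1 CPM in dorsal pieces and was at 74.1, 88.5, 19.7, 113 and 90.4 CPM in ventral pieces, where mutant 3 was low (-1.79 ± 0.59, edgeR adjusted p = 0.381). Nefm, a neurofilament of axons with 19.2% of its exonic bases shared with Nefl, was at 102, 46.9, 0.0707, 1.79 and 44.5 CPM in dorsal and at 35.7 to 212 CPM in ventral pieces (-1.68 ± 1.06, edgeR adjusted p = 0.692). Of the 14 tested neuronal and axonal genes, Nefm among them, 11 had a positive and 3 a negative log2 fold change. Their median was 0.85 in mutants and -0.23 in controls. By edgeR 2 reached an unadjusted p under 0.05 in the dorsal and 0 in the ventral direction (6.53% and 5.89% of all genes). Adam15, a membrane metalloproteinase with 20.6% of its exonic bases shared with another gene model, was at 0 in 3 dorsal and 4 ventral pieces.

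Set against the controls, 2 genes differed between the walls by another amount in the mutants. The interaction of genotype and region, fitted on 18 libraries with batch as a term, called Ptn and Fam49a of 16329 genes (0.0122%), both in the ventral direction, and 1334 (8.17%) had an unadjusted p under 0.05. Ptn was at 157, 326, 274, 562 and 921 CPM in dorsal and at 1558, 1380, 2611, 3296 and 3362 CPM in ventral mutants. In controls it was at 1302, 1589, 2364 and 1910 CPM in dorsal and at 1645, 2102, 2033 and 2206 CPM in ventral pieces. The dorsal mutants alone stood below the other 3 groups, and the difference between genotypes in the log2 fold change was -2.34 ± 0.37 (edgeR adjusted p = 0.0255). Fam49a (chr12:12262139-12380965), whose product is related to a Rac1-binding regulator of actin, was at 0, 0.119, 0, 0 and 0.0665 CPM in dorsal mutants and at 16.8, 17.3, 87.3, 58.2 and 71.9 CPM in ventral mutants. Against the floor, the ventral mean exceeded the dorsal one at least 235-fold, while controls held 51.9 to 93.8 CPM in dorsal and 21.8 to 102 CPM in ventral pieces (interaction, edgeR adjusted p = 0.0244). With the number as a term edgeR called 0 genes in the interaction, with 445 at an unadjusted p under 0.05, and by DESeq2 594. It also called 0 without dorsal control 1, ventral control 2, 3 or 4, dorsal mutant 4 or ventral mutant 3, 4 or 5, with 1150 to 1330 genes at an unadjusted p under 0.05. Without both libraries of mutant 2, Fam49a alone was called, and 5 genes were called without dorsal control 4.

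Several other genes had a lower mean level in dorsal mutants than in either wall of the controls, but did not pass the test of the interaction. Wif1, a secreted Wnt antagonist, was at 119, 107, 133, 178 and 426 CPM in dorsal and at 906, 488, 790, 742 and 1089 CPM in ventral mutants, against 350 to 543 CPM and 230 to 609 CPM in controls. Only dorsal mutant 5 reached the range of the controls (interaction -2.20 ± 0.47, edgeR adjusted p = 0.419). Slit2, a repellent of retinal axons, ran from 48.9 to 177 CPM in dorsal and from 158 to 495 CPM in ventral mutants, against 271 to 338 CPM and 168 to 302 CPM in controls (interaction -1.90 ± 0.47, edgeR adjusted p = 0.499). Hes1, Slc1a3 and Tgfb2 had interactions of -1.34 ± 0.35, -1.73 ± 0.40 and -1.93 ± 0.50 (edgeR adjusted p = 0.499 each). Tgfb2, a transforming growth factor beta ligand, was at 48.2 to 147 CPM in dorsal and 167 to 480 CPM in ventral mutants (log2 fold change -1.79 ± 0.34, edgeR adjusted p = 0.0785). In the other direction, Elovl4, a fatty acid elongase of photoreceptors, was at 70.9 to 158 CPM in dorsal and 7.29 to 73.8 CPM in ventral mutants and at 1.06 to 6.49 CPM and 7.14 to 37.6 CPM in controls. It overlapped by 1 ventral library (interaction 4.85 ± 1.20, edgeR adjusted p = 0.499). Ak5, an adenylate kinase of neurons, was at 8.99, 26.5, 2.47, 39.9 and 14.6 CPM in dorsal mutants and at most 0.0612 CPM in ventral mutants, at least 114-fold higher (edgeR adjusted p = 0.228).

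Further genes with small p-values and higher levels in the dorsal wall included transporters, cytoskeletal and matrix proteins. Slc4a5, a bicarbonate transporter, was at 123, 5.13, 5.94, 25.9 and 49.6 CPM in dorsal pieces and at most 0.0615 CPM in ventral pieces, at least 259-fold higher (edgeR adjusted p = 0.0625 without and 0.4 with the number). Cald1, an actin-binding protein, ran from 226 to 468 CPM in dorsal and from 19.2 to 123 CPM in ventral mutants (log2 fold change 2.22 ± 0.39, edgeR adjusted p = 0.0625), and its log2 fold change in controls was 2.47. Reln, the secreted guidance protein reelin, was at 436, 150, 446, 65.3 and 156 CPM in dorsal and at 2.89, 7.87, 6.65, 0.279 and 32.4 CPM in ventral pieces. Its groups were apart in every mutant (4.66 ± 0.95, edgeR adjusted p = 0.156). Gpc3, a heparan sulphate proteoglycan, Lpar1, a lysophosphatidic acid receptor, and Ctsd, a lysosomal protease with 34.4% of its exonic bases shared with another gene model, had log2 fold changes of 2.48 ± 0.53, 1.93 ± 0.39 and 2.21 ± 0.43 without overlap (edgeR adjusted p = 0.181, 0.149 and 0.111). Ssbp2, a partner of LIM homeodomain factors with 22.1% of its exonic bases shared, ran from 316 to 552 CPM in dorsal and from 148 to 251.8 CPM in ventral pieces (0.99 ± 0.21, edgeR adjusted p = 0.181). With higher levels in the ventral wall, Dad1, a subunit of the oligosaccharyltransferase, was at 477 to 673 CPM in dorsal and 819 to 1400 CPM in ventral pieces (-1.02 ± 0.16, edgeR adjusted p = 0.0625), with -0.83 in controls. Oxa1l and Mrps6, which serve mitochondrial membrane insertion and translation, and Arl4a, a small GTPase, had log2 fold changes of -1.55 ± 0.28, -1.28 ± 0.24 and -1.65 ± 0.31 without overlap (edgeR adjusted p = 0.0669, 0.0765 and 0.0785). Mrps6 shares 19.9% of its exonic bases with another gene model.

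Neurogenic genes were mostly higher in the dorsal wall, and few stood apart alone. All 13 tested genes of the proneural list had a positive log2 fold change, with a median of 2.18. In controls 9 of them could be tested, with a median of 0.15 over these 9. In the mutants 3 had an unadjusted p under 0.05 in the dorsal direction (6.53% of all genes), 2 did not overlap (0.606%) and 0 were called by edgeR. Hes6, which promotes neuronal differentiation, was at 108, 251.6, 102, 129 and 82.3 CPM in dorsal and at 1.04, 61.3, 34.2, 46.6 and 8.88 CPM in ventral mutants. The lowest dorsal value was above the highest ventral value (2.18 ± 0.77, edgeR adjusted p = 0.381). Btg2, an antiproliferative gene of neurogenic divisions, ran from 182 to 386 CPM in dorsal and from 22.4 to 121 CPM in ventral pieces (1.54 ± 0.41, edgeR adjusted p = 0.343). The summed level of the list was highest in mutant 2 in both walls. Without both libraries of that mutant the median was 3.24, and the log2 fold changes of Hes6 and Btg2 were 2.24 and 1.64. The 8 tested retinal ganglion cell genes had 1 gene at an unadjusted p under 0.05 in each direction, and so had the 9 tested retinal progenitor genes. The shares over all genes were 6.53% in the dorsal and 5.89% in the ventral direction. Six6, an eye field homeobox gene, was higher in the ventral piece of all 5 mutants but overlapped between the groups, with 89.1 to 235 CPM against 20.7 to 139 CPM (-1.44 ± 0.56, edgeR adjusted p = 0.381).

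Among signalling genes, Wnt components had values in both directions. Dkk1, a secreted Wnt inhibitor, was at 77.3, 93.7, 128, 106 and 78.5 CPM in dorsal mutants and at 0, 0, 0, 18.7 and 0 CPM in ventral mutants, and at 0 in all 8 control libraries. Ventral mutant 4 alone was above 0 in that wall, and the groups did not overlap (log2 fold change 4.79 ± 1.86, edgeR adjusted p = 0.381 without and 0.446 with the number). With each library left out in turn, the edgeR adjusted p of Dkk1 ran from 0.00222 to 0.498 without the number as a term. The lowest came without ventral mutant 4, which left only values of 0 in that wall, so it is no separate support. Wls, the carrier that lets Wnt proteins be secreted, was at 667, 225, 495, 890 and 524 CPM in dorsal and at 215, 49.5, 165, 191 and 226 CPM in ventral pieces. Ventral mutant 5 was just above dorsal mutant 2 (1.74 ± 0.39, edgeR adjusted p = 0.216 without and 0.0604 with the number), and controls had a log2 fold change of 1.57. The 17 tested Wnt genes had 2 at an unadjusted p under 0.05 in each direction and a median of -0.68. Over all genes, 6.53% reached that level in the dorsal and 5.89% in the ventral direction. The counts for this and the following lists are to be read beside those shares. Of 16 BMP pathway genes, 2 passed that level in each direction. The BMP targets Id3 and Id1 were higher in the ventral piece of all 5 mutants (-0.73 ± 0.23 and -1.02 ± 0.41, edgeR adjusted p = 0.381 each), with -0.86 and -1.69 in controls. Of 10 hedgehog genes only Gli3, which mediates repression in that pathway, had an unadjusted p under 0.05 (-0.89 ± 0.38, edgeR adjusted p = 0.381). The FGF list had 1 gene in the dorsal direction, the receptor Fgfr2 (1.24 ± 0.56, edgeR adjusted p = 0.384), and 2 in the ventral direction of 13. The retinoic acid list had 2 and 1 of 9, with the retinoic acid carrier Crabp2 at 1.50 ± 0.62 (edgeR adjusted p = 0.381), and the Notch list 1 and 3 of 13. The 16 tested guidance genes had 1 and 2, the latter being Ntn1 and Slit2. The medians of the Notch, hedgehog, BMP and guidance lists were 0.00, 0.08, 0.31 and -0.28. Without both libraries of mutant 2, the medians of the FGF and retinoic acid lists moved from -0.52 to -1.05 and from 1.50 to 2.64, and that of the guidance list to -0.43.

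Genes of non-neural cells were mostly higher in dorsal pieces and uneven between mutants. Of 8 endothelial genes, 4 had an unadjusted p under 0.05 in the dorsal and 0 in the ventral direction, against 6.53% and 5.89% of all genes. Their median log2 fold change was 3.64 (3.41 with genes at the floor set to their bound), and 6.75 without both libraries of mutant 2. Their summed level was 219, 43.2, 453, 44.8 and 167 CPM in dorsal mutants 1 to 5 and 9.23, 89.9, 91.2, 85.5 and 105 CPM in ventral mutants. These sums overlapped, and the ventral sum was the higher in mutants 2 and 4. Emcn, a sialomucin of veins and capillaries, was at 111, 0, 143, 0 and 21.6 CPM in dorsal pieces and at 0 in all ventral pieces, where Cdh5, the cadherin of endothelial junctions, was at 0 too. Kdr, a VEGF receptor named after its values were seen, made up most of the ventral sum, at 9.23 to 94.2 CPM. Acta2, the actin of smooth muscle and pericytes, was at 38.2, 0, 235, 24.5 and 16.9 CPM in dorsal and at most 0.0473 CPM in ventral pieces, at least 390-fold higher (edgeR adjusted p = 0.0765). Of 12 mesenchyme genes 4 and of 7 mural genes 4 had an unadjusted p under 0.05 in the dorsal direction (6.53% of all genes), and 0 of either list in the ventral direction (5.89%). Dcn, the proteoglycan decorin of fibroblasts, was at 39.1, 17.8, 11.9, 58.6 and 45.7 CPM in dorsal and at 0, 0, 0.0294, 0 and 2.69 CPM in ventral mutants (6.01 ± 2.05, edgeR adjusted p = 0.381), and at 176 to 1648 CPM in dorsal controls. The 8 erythroid genes, mostly globins, had summed levels of 1790, 176, 7270, 2995 and 4505 CPM in dorsal and 507, 2.27, 912, 475 and 1227 CPM in ventral mutants, higher in the dorsal piece of all 5 but overlapping between the groups. The part of these cells in the call of Cd34 was not tested. In controls the endothelial, mesenchyme, mural and erythroid lists had median log2 fold changes of 2.75, 3.26, 3.22 and 1.48, against 3.64, 1.74, 7.51 and 2.25 in mutants. These lists were therefore higher in the dorsal wall of both genotypes by their medians. Basement membrane genes split, with Nid1 and Lamb1 at 6.13 ± 2.00 and 1.39 ± 0.51 and Agrn at -0.93 ± 0.31 on the log2 scale (edgeR adjusted p = 0.381 each). Macrophage and microglia genes gave 0 of 8 at an unadjusted p under 0.05 by edgeR, with sums of 0 to 186 CPM in dorsal and 0 to 196 CPM in ventral pieces.

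Subunits of SWI/SNF had a median close to that of all genes, and genes of the cell cycle a slightly lower one. The 20 tested subunits had a median log2 fold change of -0.02, with Ss18 alone at an unadjusted p under 0.05 (-1.31 ± 0.59, edgeR adjusted p = 0.381). Over all genes, 5.89% reached that level in the ventral direction. Smarcc2, the paralogue of Smarcc1, was at 7.09 to 45.2 CPM in dorsal and 20.6 to 57.2 CPM in ventral mutants (-0.26 ± 0.76, edgeR adjusted p = 1). Controls held 74.6 to 146 CPM of Smarcc2 in dorsal and 13.2 to 45.6 CPM in ventral pieces (1.96 ± 0.68, edgeR adjusted p = 0.615). Its interaction of genotype and region was -2.21 ± 1.0 and was not called (edgeR adjusted p = 0.59). Smarca4, the ATPase of the complex, was at 168 to 340 CPM in dorsal and 130 to 337 CPM in ventral mutants (0.07 ± 0.29, edgeR adjusted p = 1). The 16 tested proliferation genes had a median of -0.22, with 6 positive and 10 negative log2 fold changes. By edgeR 1 of them reached an unadjusted p under 0.05 in the dorsal and 3 in the ventral direction (6.53% and 5.89% of all genes). In controls their median was -0.66, and 1 of the 16 had a positive log2 fold change. Cdk1 and Ccnb1, the kinase and cyclin of mitotic entry, had log2 fold changes of -0.65 ± 0.18 and -0.64 ± 0.22 (edgeR adjusted p = 0.343 and 0.381), and Mcm7, a replicative helicase subunit with 12.6% of its exonic bases shared with Ap4m1, one of 0.59 ± 0.27 (edgeR adjusted p = 0.387).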

How the data were processed

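Transverse cryosections of E14 optic stalks were dissected by laser into dorsal, ventral and axon pieces, whose RNA was amplified by PCR without molecular identifiers and sequenced with single-end reads. The deposited table holds raw counts by gene, produced by the authors with STAR on mm10 and HTSeq within Seq2Science; tool versions, annotation release and strand setting are not given in the sources used here. The authors deposited no CPM, so CPM and log2 values were computed here. Columns were joined to samples by their names and gene positions taken from GENCODE M21 (mm10), which matched 55227 of 55487 gene identifiers. No 2 libraries were identical.

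Following the study's methods, a gene was kept when it exceeded 10 counts in 3 or more of the 27 libraries. The edgeR 4.0.16 quasi-likelihood test (TMM scaling, R 4.3.3) was fitted to the 10 mutant libraries without a covariate, and again with the replicate number as a block. The same test was fitted to the 8 controls, and the interaction to 18 libraries with batch as a term. A call needed a log2 fold change beyond 0.58 in size and a p below 0.05 after Benjamini-Hochberg correction. Positive fold changes mean higher in dorsal pieces, and errors are SE unless named SD. The p-values of fits without the block rest on the spread between the libraries of a group. Those with the block, and those of sign changes, rest on how the dorsal minus ventral differences spread between numbers. Exact permutation tests used log2(CPM + 1). DESeq2 1.42.0, limma 3.58.1 (voom), other scalings, filters and left-out libraries were alternatives. The fitting steps were tested on simulated data.

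Named genes were those called, the 12 per direction with the smallest p among genes of non-overlapping groups with the same sign in 5 of 5 pairs and at least 10 CPM, the 13 genes discussed by the study, up to 2 genes per list and direction, and up to 3 per direction in the interaction. Genes and lists were chosen with earlier results of these data known. Depth was 10899418 to 33980417 counts a library.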

Additional observations from a re-analysis of the deposited data

Results flagged for a closer look

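Of 132 groups of 5 libraries checked for a value far from the others (gap over range above 0.71), 17 had one, and chance flags about 1 in 20 such groups. In the ventral pieces, mutant 3 stood apart for Cald1 (0.716), Mrps6 (0.752), Mmp14 (0.757), Aldh1a3 (0.813) and Adam15 (1, the only ventral piece above 0), mutant 2 for Wls (0.791), Lamb1 (0.892), and the share of ribosomal protein counts (0.794), mutant 4 for Btg2 (0.718) and Dkk1 (1), mutant 5 for Dcn (0.978) and mutant 1 for Nid1 (0.792). In the dorsal pieces, mutant 1 stood apart for Ntn1 (0.715) and Ednrb (0.804). The globin genes were far lower in mutant 2 than in the other mutants, with gaps of 0.8 for Hbb-bs in dorsal and 0.729 in ventral pieces and 0.727 for Hba-a1 in ventral pieces.

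The difference between the walls itself differed between mutants and controls for Ptn (-2.34 on the log2 scale) and Fam49a (-10.4, a fitted value that depends on the prior count because dorsal mutants were at the floor).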

How the results depend on the processing

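Libraries of equal number deviated together only weakly. The correlations of their deviations were all above 0 but none over 0.1, at 0.00646 to 0.0995, against -0.0443 to 0.0289 for other numbers. Of the 5 dorsal and the 5 ventral libraries, 3 of each correlated best with their own number. The fit with the replicate block called 6 genes against 0 without it, and the exact p of the centroid distance was 0.0625 with the pairs kept. The count of called genes in the mutants was 460 by DESeq2, 1007 by DESeq2 with the block, 27 by limma voom, 39 by limma voom with the block, 69 by the newer quasi-likelihood method of edgeR, 23 with no filter on low counts, 3 with all 27 libraries fitted, 16 with batch as a term and 2 without both libraries of mutant 2, an alternative chosen after seeing the data. It stayed at 0 with RLE scaling, a filter of 5 of 10 libraries, or either batch alone, and ran from 0 to 8 without 1 library. With the block it ran from 0 to 2 without 1 mutant. Of the 6 genes called with the block, DESeq2 called 6 without and 6 with the block, and limma voom 1 and 5. In controls, DESeq2 called 243 and limma voom 19, and counts ran from 0 to 1 without 1 library (Dcn without ventral control 3). The interaction had 0 calls with the block, 594 by DESeq2, 10 by limma voom, 1 with no batch term, 1 with all 27 libraries, 1 without both libraries of mutant 2, and from 0 to 5 without 1 library. The cause of these shifts was not tested.

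Over 66 named genes and 1577 values under alternatives, 1361 kept direction and side of the threshold, 205 newly passed it and 11 changed sign. Smarcc2 was at 0.22 without both libraries of mutant 2, and Smarca4 ran from -0.088 to 0.21 without 1 library, below 0 without dorsal mutant 4 (-0.088), ventral mutant 3 (-0.084) or dorsal mutant 1 (-0.051). Adam15 was at 4.22 with the block, 9.56 by DESeq2 with the block, 1.60 by limma voom, 0.73 by limma voom with the block, 0.13 with batch as a term, 7.63 in batch B alone and 8.46 without ventral mutant 3, and ran from -3.55 to 8.46 without 1 library. Genes near the floor of 3 counts are limited by depth.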

Other observations

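In the axon library of mutant 2, Fgf15 and Atoh7 were at 0, unlike in its dorsal and ventral libraries. Crabp1, a retinoic acid carrier of young neurons, was at 341 CPM in its dorsal and 281 CPM in its ventral library, against 0 to 19.5 CPM in the other 8 stalk libraries, and its axon library held 89.7 CPM, within the 27.1 to 181 CPM of the 5 axon libraries of mutants. Ccnd1, the cyclin of retinal progenitor division, was at 876 and 834 CPM against 44.3 to 255 CPM, and its axon library, at 666 CPM, was the highest of the 5 (333 to 666 CPM). Both genes were picked after their values were seen.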
